A study of Homo sapiens with 22 samples.

Results

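The peaks described here lie within 100 kb of the start site of 8 cell-cycle genes: CDKN1A, CDKN1B, CDKN2A, CDKN2B, CCND1, CCND2, CCNE1 and CDK6. A peak was a member if any base of it fell in the span of 100 kb on either side of the hg19 start, and the overlapping spans of CDKN2A and CDKN2B were counted once, which left 7 windows. They held 592 of the 508791 peaks in the 22 lists: 75 of 71940 SMARCA4 peaks, 117 of 103951 SMARCC1 peaks, 395 of 327510 H3K27ac peaks and 5 of 5390 HA peaks. The rule uses gene names and positions, not peak values.

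The study profiled chromatin by CUT&Tag, in which an antibody tethers a transposase to its target in nuclei and the fragments cut there are sequenced. All libraries came from AN3CA, a line established from a human endometrial carcinoma, and every culture carried a construct: an empty vector as control (Empty, replicates 1 and 2), wild-type ARID1A (WT), the DBDmut ARID domain mutant, the delIDR1 truncation, the CBR truncation, or the DDX4 IDR hybrid, with 1 library per antibody for each form of ARID1A. ARID1A belongs to canonical BAF, a chromatin remodeller of the SWI/SNF family in which SMARCA4 is the ATPase and SMARCC1 part of the core, and H3K27ac marks active promoters and enhancers. The HA tag used here was profiled in the DDX4 cells. The labels do not say whether the Empty replicates came from separate cultures, nor whether the cells are clones or pools, so the spread between libraries may be technical.

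Cyclins bind and activate cyclin-dependent kinases. The D-type cyclins CCND1 and CCND2 work with CDK6 (and CDK4), and cyclin E1 (CCNE1) works with CDK2, to phosphorylate the retinoblastoma protein and let cells pass from G1 into S phase. The inhibitors oppose this step: CDKN1A (p21) and CDKN1B (p27) bind cyclin-CDK complexes, while CDKN2A (p16, with the alternative product p14ARF) and CDKN2B (p15) bind CDK4 and CDK6 themselves. CDKN1A is a textbook target of p53, CDKN2B responds to TGF-beta, and CCNE1 and CCND1 are often amplified in carcinomas.

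Libraries differed in depth, which was estimated from the lists in fragments per kb of background. SMARCA4 libraries ran from 0.916 to 1.945, SMARCC1 libraries from 1.326 to 3.284 and H3K27ac libraries from 3.585 to 14.515, where Empty replicate 2 was deepest and listed 92057 peaks against 31745 to 50885 in the others. The median pileup (fragments over the summit) of a window peak was 7 to 17 by library with SMARCA4, 10 to 15 with SMARCC1 and 19 to 26 with H3K27ac, so a subunit peak here rested on few fragments. The stamps that open the peak names also differed: Empty replicate 1, WT, DBDmut, delIDR1 and CBR shared 1 stamp, the DDX4 libraries had another and Empty replicate 2 its own. The stamp cannot be told apart from the construct for DDX4, and its part in the results was not tested.

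Sequence just before the start was read for the promoters whose data are described most closely below. The RefSeq table of promoters (GRCh38.p14, a later build than the hg19 lists, with no conversion between them) matched 6 of the 8 genes with 8 promoters, and CCND1 and CCND2 had no entry. Shown are the 250 bases before the start of CDKN2B (chr9:22009306-22009555, minus strand), whose promoter carried SMARCC1 in every background, of CDKN1B (chr12:12717118-12717367, plus strand), the next most often occupied, and of both listed starts of CDK6 (chr7:92836574-92836823 and chr7:92833960-92834209, minus strand), which differed in their peaks. Capitals mark the motifs GGGCGG, the GC box of SP/KLF factors, and CCAAT, the NF-Y box, on either strand.
CDKN2B: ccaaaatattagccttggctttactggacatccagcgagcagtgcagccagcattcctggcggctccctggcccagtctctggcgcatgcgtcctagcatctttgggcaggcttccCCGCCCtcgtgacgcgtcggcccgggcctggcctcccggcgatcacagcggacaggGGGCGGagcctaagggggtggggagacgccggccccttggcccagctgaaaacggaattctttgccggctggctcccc
CDKN1B: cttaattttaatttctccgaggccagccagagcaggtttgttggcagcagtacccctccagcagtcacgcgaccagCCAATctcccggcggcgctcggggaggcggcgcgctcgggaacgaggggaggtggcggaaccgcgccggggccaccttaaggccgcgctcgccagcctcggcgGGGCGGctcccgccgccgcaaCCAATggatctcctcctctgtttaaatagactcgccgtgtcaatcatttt
CDK6 start 1: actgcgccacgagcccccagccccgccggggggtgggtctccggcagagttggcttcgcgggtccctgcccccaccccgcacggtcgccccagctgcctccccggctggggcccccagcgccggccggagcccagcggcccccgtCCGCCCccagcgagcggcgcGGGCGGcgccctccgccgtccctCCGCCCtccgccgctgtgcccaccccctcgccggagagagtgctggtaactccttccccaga
CDK6 start 2: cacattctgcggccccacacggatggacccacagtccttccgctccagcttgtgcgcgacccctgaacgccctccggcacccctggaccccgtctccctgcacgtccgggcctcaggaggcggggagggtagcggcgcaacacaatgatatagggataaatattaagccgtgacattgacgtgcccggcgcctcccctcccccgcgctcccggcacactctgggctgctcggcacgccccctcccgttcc

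CDKN2B held 2 GGGCGG matches, CDKN1B held 1 and 2 CCAAT matches, the first CDK6 start held 3 GGGCGG matches, and the second CDK6 start held no match. Of the other genes, CCNE1 held 7 GGGCGG matches, CDKN1A held 4, and the second of 2 listed CDKN2A starts held 1. The CDKN1A promoter in that table lay 2.25 kb from the gene's start. GGGCGG occurred in 42.6% of all 35116 promoter windows of that length and CCAAT in 32.0%. The letters TGANTCA (AP-1, 6.57%), CACGTG (E-box, 6.34%), TTTGGCGC (E2F, 0.55%) and TTTCGCGC (E2F, 0.439%) were searched on both strands and were in none of the 8 windows. These promoters were rich in G and C: CCNE1 had 81.2%, the first CDK6 start 80.0%, CDKN1A 76.4% and CDKN1B, the lowest, 64.4%, against a median of 58.0%.

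Peak numbers over the 7 windows were compared first, since this was the only contrast with any replication, which was in the Empty libraries. The ARID1A libraries pooled WT with the mutant and hybrid forms, each a different construct, so their SD is a spread between constructs. SMARCA4 had 6.0 ± 4.24 peaks in the Empty libraries (SD, n = 2) and 12.6 ± 4.67 in the ARID1A libraries (SD, n = 5), with WT highest at 19 and Empty replicate 1 lowest at 3; the exact permutation p was 0.2381 (adjusted 0.3571). SMARCC1 had 16.0 ± 7.07 and 17.0 ± 9.46 peaks (exact permutation p = 0.9524, adjusted 0.9524), again with WT highest, at 31. H3K27ac had 75.5 ± 31.82 peaks in Empty and 48.8 ± 11.19 in the ARID1A libraries (exact permutation p = 0.1429, adjusted 0.3571), and Empty replicate 2 alone had 98. The groups overlapped for all 3 antibodies. The tests were two-sided, 21 labelings allow no p below 0.0476, and adjustment was over 3 antibodies. When the lists were shortened to equal length, the ARID1A minus Empty difference went from 6.6 to -0.2 peaks for SMARCA4 and from -26.7 to -0.3 for H3K27ac (exact permutation p = 1.0 for each). Without Empty replicate 2 the H3K27ac difference was -4.2 peaks, and without replicate 1 it was -49.2.

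**Figure D1:**
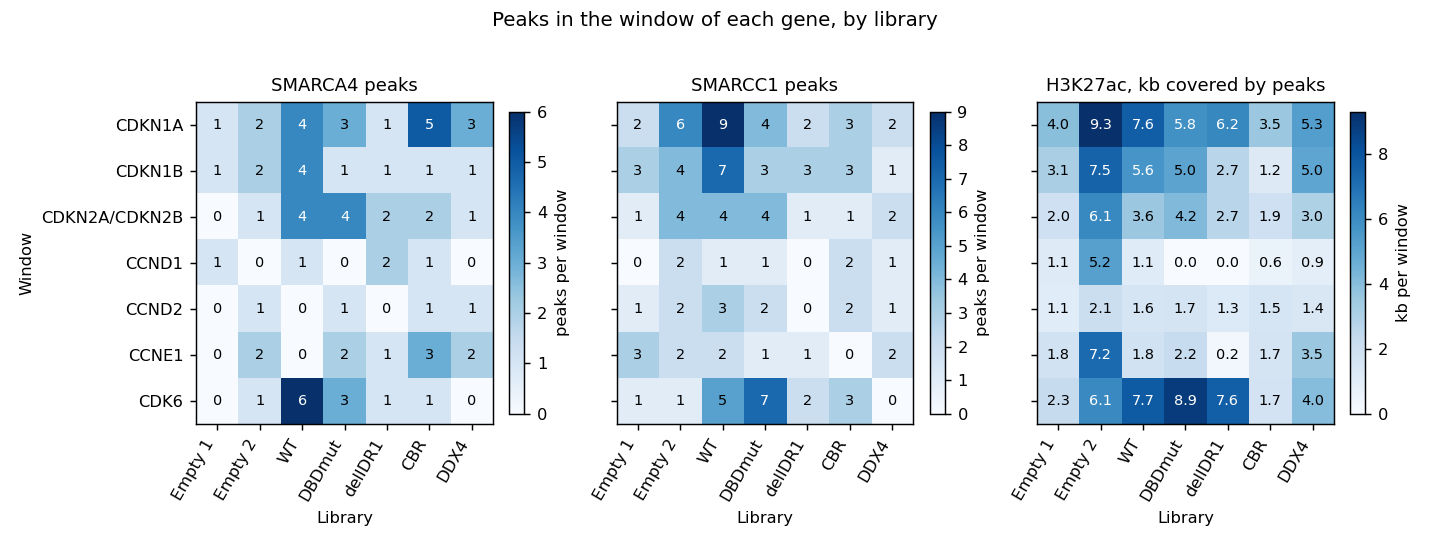
Peaks per window (rows) and library (columns): number of SMARCA4 peaks, number of SMARCC1 peaks, and kilobases covered by H3K27ac peaks. WT has 6 SMARCA4 peaks around CDK6 where Empty has 0 and 1, and Empty replicate 2 has the most H3K27ac in every window but CDK6, where DBDmut covers 8.87 kb.

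Where peaks of both subunits overlapped by at least 1 bp in WT, the SMARCA4 peak was taken as a BAF site. It was called gained when no peak of SMARCA4 or SMARCC1 covered it in Empty replicate 1 or 2. The windows held 14 BAF sites, of which 7 were gained, or 50% (Wilson 95% interval 26.8 to 73.2, counting error only). Over the genome 4383 of 9743 were gained, a background of 45.0%, so the windows as a whole held about the share found everywhere. Of the other 7 sites, 1 carried both subunits in both Empty replicates and 6 had a subunit in at least 1 of them. The gained sites were unevenly placed: 5 were around CDK6, 1 each lay near CDKN1B and CDKN2B, and none lay near CDKN1A, CCND1, CCND2 or CCNE1. CCND2 and CCNE1 had no WT BAF site at all.

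CDK6, the kinase partner of the D-type cyclins, had 5 WT BAF sites, and all 5 were gained. They occupied 4 places: 1 lay 80.3 kb upstream of the start, and the others 26.7, 45.1, 45.3 and 95.6 kb downstream, those at 45.1 and 45.3 kb under the same SMARCC1 peak. SMARCA4 peaks in the CDK6 window numbered 6 in WT, 3 in DBDmut, 1 each in delIDR1, CBR and Empty replicate 2, and 0 in DDX4 and Empty replicate 1. SMARCC1 peaks numbered 7 in DBDmut, 5 in WT, 3 in CBR, 2 in delIDR1, 1 in each Empty replicate and 0 in DDX4.

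The site 80.3 kb upstream of CDK6 (chr7:92546120-92546366, hg19) was the strongest of the gained sites. In WT its SMARCA4 peak had a fold of 10.1 over local background, 13 fragments and rank 2109 of 12949, and its SMARCC1 peak a fold of 9.9, 21 fragments and rank 4680 of 23855. SMARCA4 had 8 fragments there in DBDmut and 11 in delIDR1, and SMARCC1 had 13 in DBDmut, 14 in delIDR1 and 7 in CBR. No subunit peak covered it in either Empty replicate or in DDX4, and CBR had no SMARCA4 peak. H3K27ac had 42 fragments in WT, 61 in DBDmut, 41 in delIDR1 and 9 in DDX4, and no peak in Empty replicate 1, Empty replicate 2 or CBR. Both subunits and the mark were therefore listed together in the same 3 backgrounds.

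At 45.1 and 45.3 kb downstream of the CDK6 start (chr7:92420819-92420912 and chr7:92420555-92420681), the WT SMARCA4 peaks had 9 and 7 fragments and the shared SMARCC1 peak had 18. Of the other backgrounds CBR alone had a subunit peak, SMARCC1 with 8 fragments at 45.3 kb. H3K27ac had 47 fragments in WT, 45 in DBDmut and 44 in delIDR1 over both sites. CBR had 9 at 45.3 kb and no peak at 45.1 kb, and Empty and DDX4 had no peak at either. The H3K27ac pileups of WT, DBDmut and delIDR1 lay within 3 fragments of each other, while DBDmut and delIDR1 had no subunit peak there. Their SMARCA4 libraries were the shallowest, at 0.916 and 1.023 fragments per kb, and the part of depth was not tested.

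The site at 95.6 kb (chr7:92370279-92370453) had 6 SMARCA4 and 12 SMARCC1 fragments in WT and 7 SMARCC1 fragments in DBDmut. Its H3K27ac peak had 50 fragments in WT, 27 in DBDmut and 17 in delIDR1, and no peak was listed in the other 4 libraries. It closes a stretch from 65 to 100 kb downstream, picked out after its values were seen, in which H3K27ac peaks covered 2.67 kb in WT, 3.23 kb in DBDmut and 2.79 kb in delIDR1. The same stretch had 0.13 kb in Empty replicate 1, 1.1 kb in Empty replicate 2, 0.46 kb in DDX4 and 0 kb in CBR. The highest pileup there was 50 fragments in WT, 70 in DBDmut and 35 in delIDR1, against 9 in Empty replicate 1, 19 in the deeper Empty replicate 2 and 13 in DDX4.

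The site at 26.7 kb (chr7:92439162-92439251) differed from its neighbours. It was gained for the subunits, with 6 SMARCA4 and 11 SMARCC1 fragments in WT and SMARCC1 alone in DBDmut (7) and CBR (11), but it was acetylated in every library. H3K27ac had 80 fragments in Empty replicate 1, 98 in Empty replicate 2, 69 in WT, 79 in DDX4, 71 in DBDmut, 43 in delIDR1 and 34 in CBR. It was also the H3K27ac peak of highest q in the WT list of this window. Here the Empty libraries were not below the ARID1A libraries.

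No list had a peak within 1 kb of the CDK6 start used in the rule (chr7:92465941). Peaks lay 2.5 to 3 kb downstream instead, and RefSeq lists a second CDK6 start 2.61 kb from the first in GRCh38. SMARCC1 had 11 fragments there in Empty replicate 1, 19 in Empty replicate 2, 15 in WT and 13 in DBDmut, and SMARCA4 had 10 in DBDmut. H3K27ac was present in all 7 libraries, with 156 fragments in Empty replicate 2, 76 in DDX4 and 31 to 53 in the others. The acetylated promoter of CDK6 was thus the one without a GGGCGG or CCAAT match above.

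**Figure D2:**
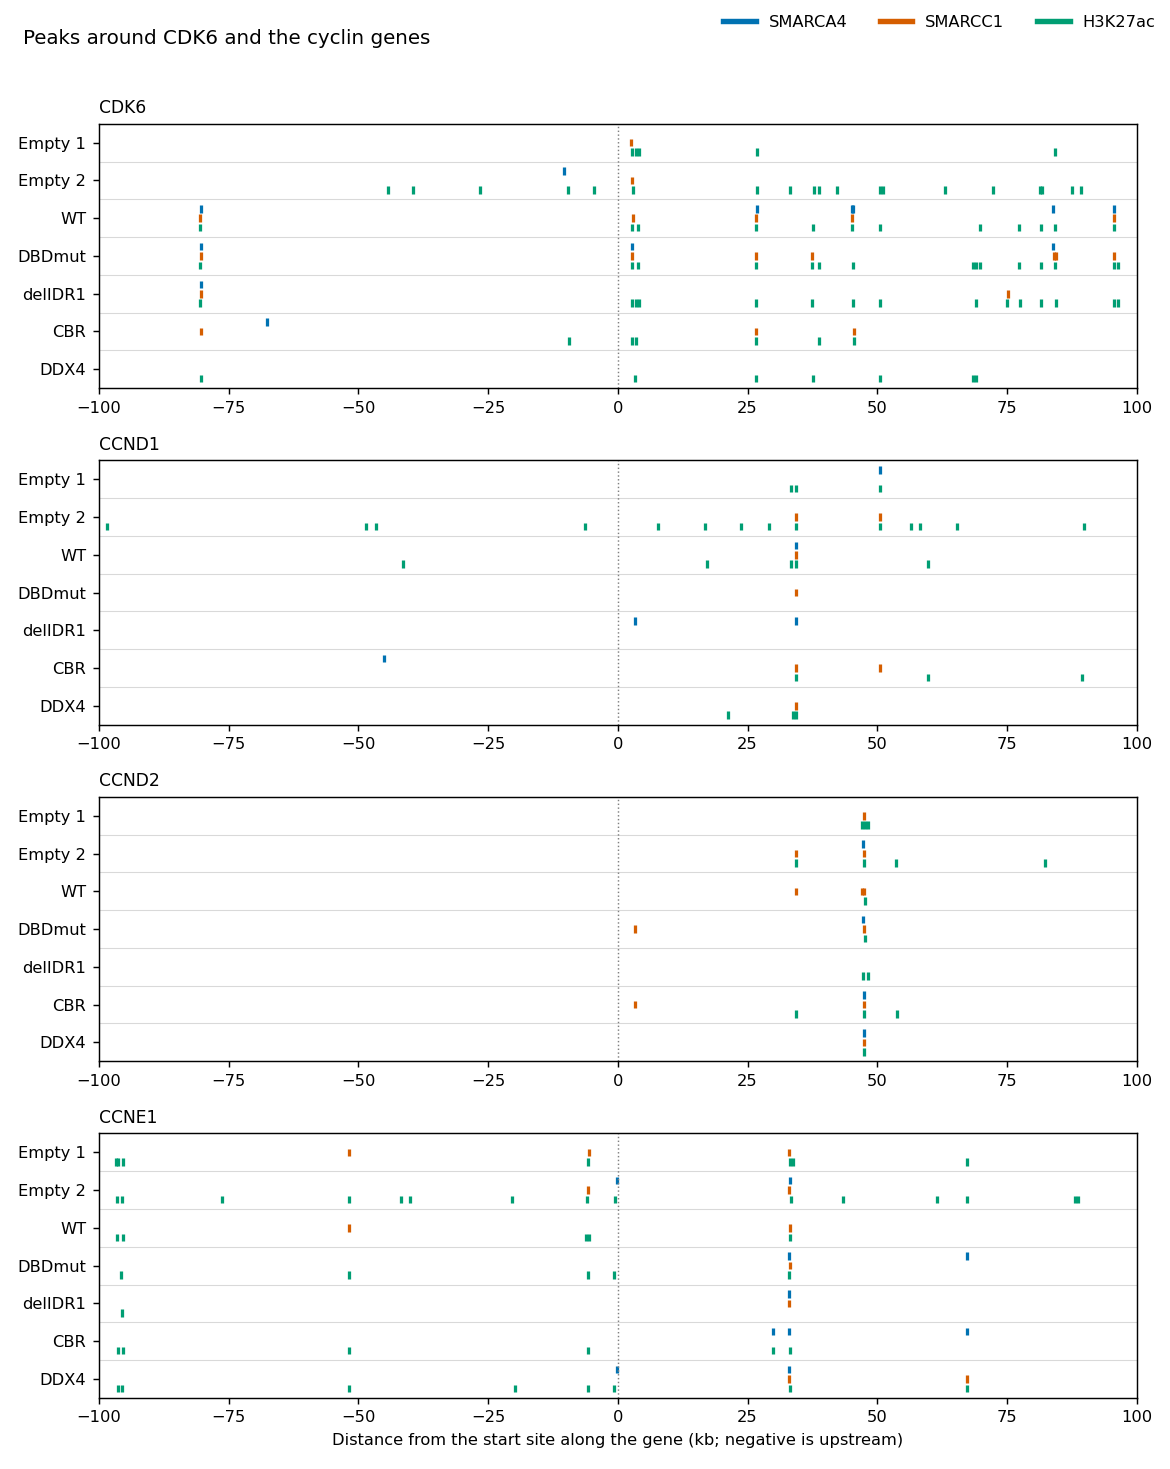
Peak centres around CDK6, CCND1, CCND2 and CCNE1 (distance from the start in kb along the gene, negative upstream), for each library (rows) and antibody (colours). CDK6 has subunit peaks in WT and DBDmut far from its start where Empty has none. The cyclin windows hold few subunit peaks, with a single position in each shared by 6 or 7 backgrounds. H3K27ac peaks in the cyclin windows number up to 15, in Empty replicate 2 around CCNE1.

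Near CDKN1B, which encodes p27, the gained site lay 74.8 kb downstream (chr12:12945011-12945106). WT had 8 SMARCA4 and 19 SMARCC1 fragments there, and no other background had a subunit peak. H3K27ac had 28 fragments in WT, 12 in DBDmut and 14 in delIDR1, and no peak in the other 4 libraries. The DBDmut peak was near the foot of its list, at rank 36808 of 39160.

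Near CDKN2B, which encodes p15, the gained site lay 75.6 kb upstream (chr9:22084828-22084976). WT had 7 SMARCA4 and 9 SMARCC1 fragments, DBDmut had 5 and 7, and no other background had a subunit peak. H3K27ac had 30 fragments in WT, 18 in DBDmut, 11 in delIDR1 and 9 in CBR, and no peak in Empty or DDX4.

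Over the 7 gained sites together, both subunits were present at 2 in DBDmut (28.6%, Wilson interval 8.22 to 64.1; genome 35.5%), at 1 in delIDR1 (14.3%, 2.57 to 51.3; genome 14.0%), and at 0 in CBR (upper bound 35.4%; genome 5.5%) and DDX4 (genome 0.479%). H3K27ac covered 7 of 7 in WT (genome 89.3%), in DBDmut (72.4%) and in delIDR1 (65.5%), each with a Wilson interval from 64.6% up. It covered 3 in CBR (42.9%; genome 26.6%), 2 in DDX4 (28.6%; genome 26.9%) and 1 in each Empty replicate (14.3%; genome 12.9% and 21.9%). Each of these intervals included the genome value, and 2 of the 7 sites shared a SMARCC1 peak, so no difference from the genome was detectable with 7 sites.

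**Figure D3:**
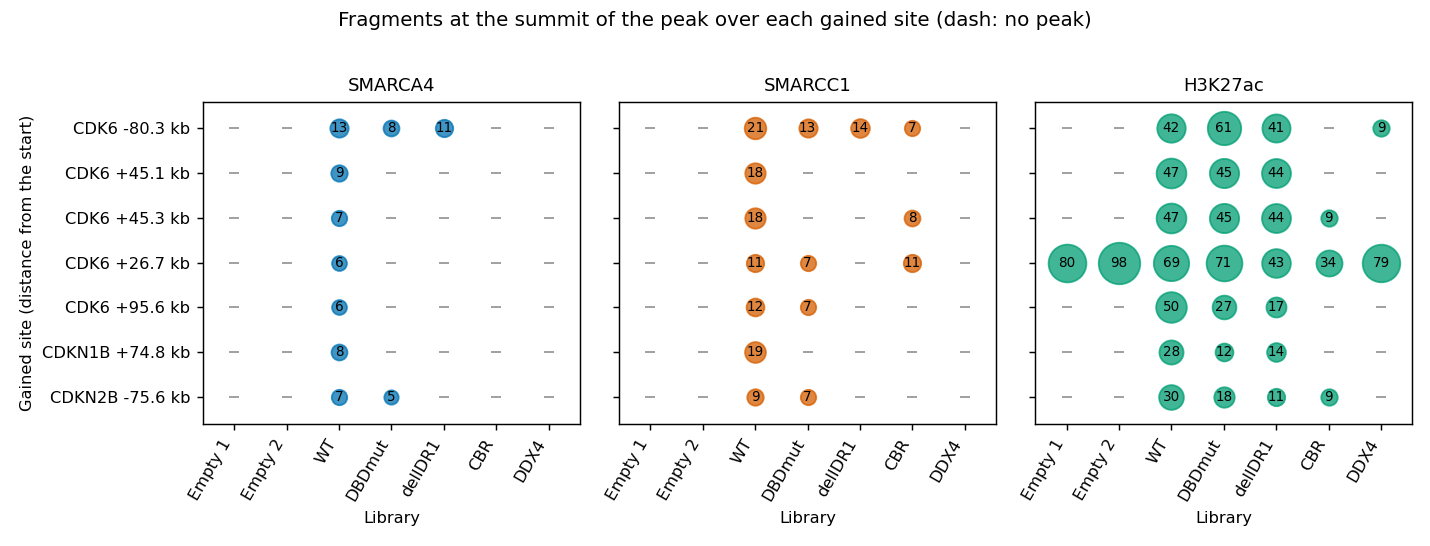
Fragments at the summit of the peak over each of the 7 gained sites (rows) in each library (columns), by antibody; a dash means no peak. H3K27ac fills the WT, DBDmut and delIDR1 columns at all 7 sites, subunit peaks outside WT are scattered, and the CDK6 site at 26.7 kb is acetylated in every library, with 34 to 98 fragments.

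**Figure D4:**
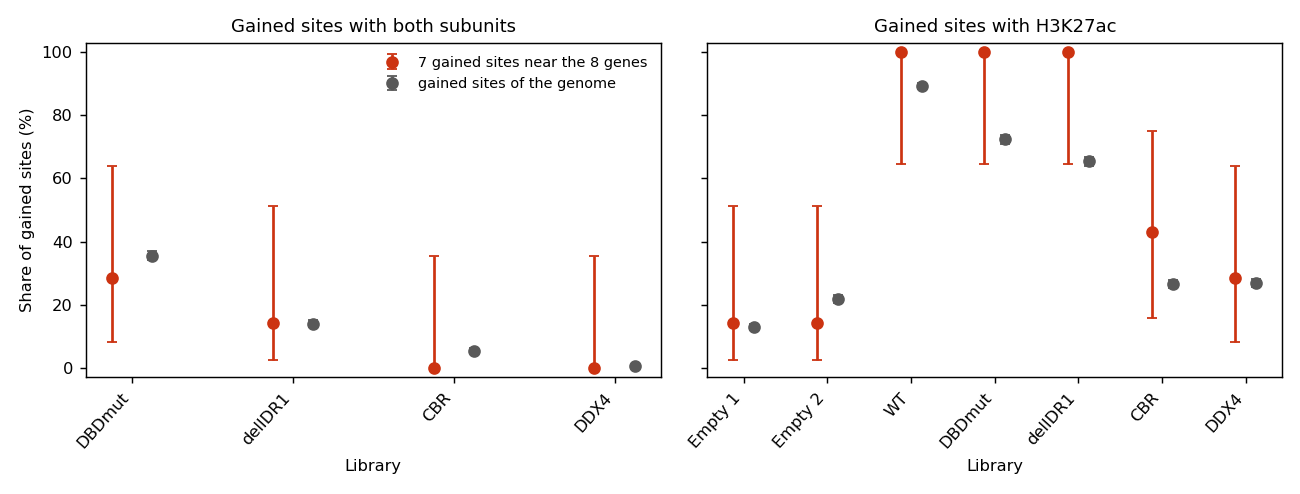
Share of gained sites with both subunits (left) and with H3K27ac (right) by library, near the 8 genes (red) and over the genome (grey), with Wilson 95% intervals. The intervals of the 7 sites are wide, from 64.6 to 100% for H3K27ac in WT, and lie over or beside the genome shares.

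The lists compared at these sites differed in depth. Scaled by fragments per kb, the WT pileups at the 7 sites would come to 4.8 to 10.4 SMARCA4 and 5.8 to 13.4 SMARCC1 fragments in Empty replicate 1, and to 7.6 to 16.5 and 6.7 to 15.7 in Empty replicate 2. In DBDmut they would come to 3.6 to 7.8 SMARCA4 and 4.4 to 10.4 SMARCC1 fragments, and in delIDR1 to 4.0 to 8.7 and 3.6 to 8.5. In CBR the values were 4.7 to 10.1 and 7.9 to 18.3, and in DDX4 4.8 to 10.3 and 3.8 to 9.0. The lowest pileup called anywhere was 4 in both lists of Empty replicate 1, delIDR1 and DDX4, and 5 in both of Empty replicate 2. In DBDmut it was 3 with SMARCA4 and 4 with SMARCC1, and in CBR 3 and 5. This lowest pileup is not the number of fragments needed at these sites. These values leave out counting spread and local background, and the part of depth in the missing peaks was not tested.

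The CDKN2B promoter was the most widely occupied start site. SMARCC1 had a peak there in all 7 backgrounds: 12 fragments in Empty replicate 1, 28 in Empty replicate 2, 20 in WT and in DDX4, 25 in DBDmut, 16 in delIDR1 and 10 in CBR. SMARCA4 had 23 fragments in DBDmut, 15 in WT and in DDX4, 11 in Empty replicate 2 and in delIDR1, and no peak in Empty replicate 1 or CBR. H3K27ac had 16 and 65 fragments in the Empty replicates, 35 in WT, 34 in DBDmut, 38 in DDX4 and 24 in CBR, and no peak in delIDR1. In delIDR1 both subunits were thus listed at a promoter without an H3K27ac peak.

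At the CDKN1B promoter SMARCC1 had 18 and 33 fragments in the Empty replicates, 24 in WT and in DBDmut, 13 in delIDR1 and 10 in CBR, and no peak in DDX4. SMARCA4 had 21 fragments in Empty replicate 2, 9 in WT and 17 in CBR. H3K27ac had 41 to 163 fragments in 6 libraries and no peak in CBR, the reverse of the CDKN2B promoter, where delIDR1 was the library without one. Of the other libraries DDX4 had the second highest H3K27ac pileup, 74 fragments, without a subunit peak.

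CDKN1A, which encodes p21, had the highest acetylation of any of the 8 starts used in the rule. H3K27ac had 77 and 230 fragments in the Empty replicates, 151 in WT, 189 in DDX4, 176 in DBDmut, 97 in delIDR1 and 68 in CBR, and the ARID1A libraries fell on both sides of Empty replicate 1. It was the H3K27ac peak of highest q in the WT list of this window, at rank 752 of 50885. No SMARCA4 peak lay within 1 kb of this start in any background, and SMARCC1 peaks were present in Empty replicate 1 (9 fragments), WT (24) and DDX4 (14). RefSeq lists the CDKN1A promoter 2.25 kb from the gene's start in GRCh38, outside that span. A region 2.04 to 2.29 kb downstream had SMARCA4 in Empty replicate 2 and DBDmut, and SMARCC1 in Empty replicate 2 and WT. H3K27ac peaks 1.92 to 2.28 kb downstream had 31 and 54 fragments in the Empty replicates, 51 in WT and 46 in DDX4.

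CDKN1A also had 2 WT BAF sites, both away from the start used in the rule. At 9.2 kb upstream (chr6:36634918-36635148), SMARCA4 had 13 fragments in WT, 11 in DBDmut, 8 in CBR and 10 in DDX4, and no peak in either Empty replicate or delIDR1. SMARCC1 had 15 in Empty replicate 2, 26 in WT, 9 in DBDmut and 9 in delIDR1. H3K27ac was present in all 7 libraries, with 46 to 101 fragments. The site 82.2 kb upstream (chr6:36561887-36562104) carried SMARCA4 (6 to 19 fragments), SMARCC1 (11 to 39) and H3K27ac (64 to 294) in every background, and was the only WT BAF site of the windows with both subunits in both Empty replicates.

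Within 1 kb of the CDKN2A start used in the rule (chr9:21994490), all 7 libraries had an H3K27ac peak at low fold, 2.5 to 5.0, with 18 to 134 fragments. These peaks did not share a place, and the delIDR1 peak lay 0.96 to 1.33 kb downstream. In this span DBDmut alone had both subunits, with 11 SMARCA4 fragments (chr9:21994564-21994689, fold 6.6) and 13 SMARCC1 fragments. Empty replicate 2 had 14 SMARCC1 fragments. H3K27ac met the merged region of the DBDmut subunit peaks in 4 libraries: Empty replicate 2, WT, DBDmut and DDX4. Starts of 2 lncRNAs, CDKN2B-AS1 and LOC124902130, are listed by RefSeq 0.53 and 1.3 kb downstream of its first CDKN2A start in GRCh38. Peaks here therefore cannot be assigned to CDKN2A alone, and which CDKN2A product starts here was not examined. RefSeq lists a second CDKN2A start 20.47 kb from the first in GRCh38. Measured from CDKN2B, this second start lay 34.46 kb downstream in GRCh38. An H3K27ac peak 34.35 to 34.51 kb downstream of the CDKN2B start in hg19 spanned that distance. It was listed in Empty replicate 2 alone, with 10 fragments, and lay 19.53 to 19.69 kb downstream of the CDKN2A start in the rule. No subunit peak of any library lay between 7.08 and 76.05 kb downstream of the CDKN2A start in the rule. The DBDmut site was the 1 BAF site of a mutant in the windows that no subunit peak of WT or Empty covered (genome 4.98% of DBDmut sites), and there were 0 in delIDR1 (1.41%), CBR (5.87%) and DDX4 (0.439%). Conversely, the windows held 2 BAF sites common to the Empty replicates, and WT had a subunit at both (2.23% of such sites over the genome had neither in WT).

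The HA tag of the DDX4 hybrid had 5 peaks in the windows, and 4 of them overlapped a subunit peak of the same cells (genome 66.9% of HA peaks).

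**Figure D5:**
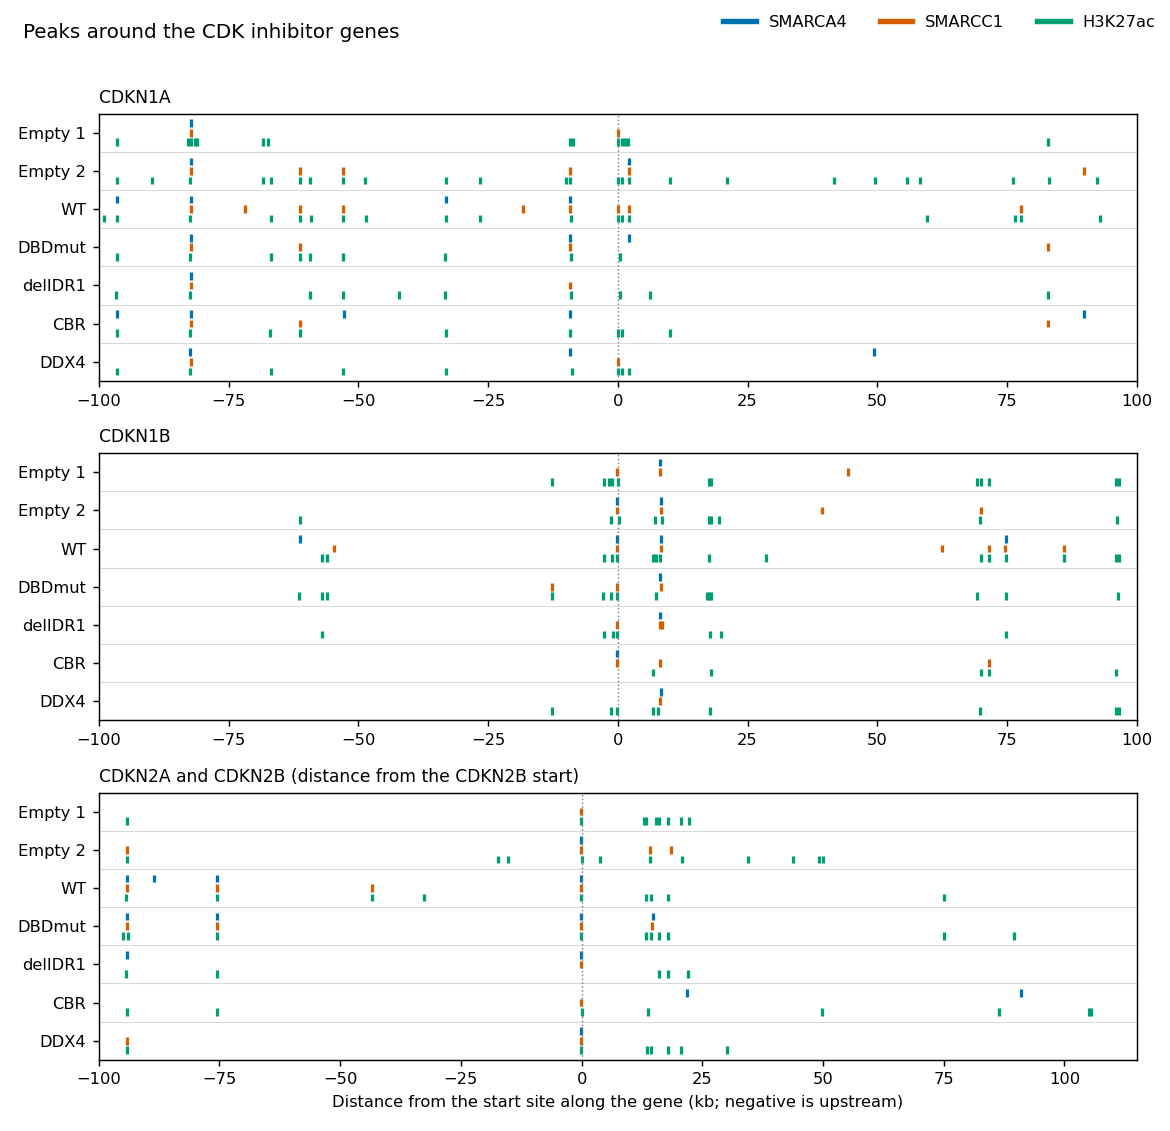
Peak centres around CDKN1A, CDKN1B and the joint window of CDKN2A and CDKN2B (distance in kb along the gene, negative upstream), for each library (rows) and antibody (colours). Shared columns stand at the CDKN2B and CDKN1B starts and 82 kb upstream of CDKN1A, and the CDKN2B site at -75.6 kb has subunit peaks in WT and DBDmut.

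The cyclin genes had little at their own starts. CCND1 and CCND2 had no peak of any list within 1 kb. CCNE1 had SMARCA4 in Empty replicate 2 (14 fragments) and DDX4 (9), no SMARCC1, and H3K27ac in Empty replicate 2 (41), DBDmut (11) and DDX4 (21). A region about 33 kb downstream of the CCNE1 start carried a subunit in all 7 backgrounds: SMARCC1 in all but CBR, with 7 to 11 fragments, and SMARCA4 in 5, with 8 to 19. It held no WT SMARCA4 peak and so no WT BAF site.

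CCND1 had 1 WT BAF site, 34.4 kb downstream (chr11:69490147-69490305), with 7 SMARCA4 and 12 SMARCC1 fragments in WT. SMARCC1 had 16 fragments there in Empty replicate 2, 14 in DBDmut, 7 in CBR and 8 in DDX4, and delIDR1 had SMARCA4 alone, with 7. H3K27ac had 17 and 66 fragments in the Empty replicates, 11 in WT, 21 in CBR and 29 in DDX4, and DBDmut and delIDR1 had none. These 2 libraries had no H3K27ac peak anywhere in the 200 kb window of CCND1, where Empty covered 1.14 and 5.23 kb, WT 1.11 kb, CBR 0.59 kb and DDX4 0.88 kb. A further H3K27ac peak 50.5 kb downstream of CCND1 had 64 fragments in Empty replicate 1 (fold 11.5, rank 2229 of 36348) and 61 in Empty replicate 2, and none of the 5 ARID1A libraries listed it.

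Regions shared across backgrounds lay mostly at annotated start sites, of these genes or of their neighbours. Overlapping subunit peaks of all libraries were merged into 60 regions, 27 of which came from a single library, and 9 had a subunit in 5 or more backgrounds, a limit set after the values were seen. Distances to other genes were taken from RefSeq in GRCh38 and set beside the hg19 distances from the same start. Of the 9, 6 lay within 1 kb of a listed start: CDKN1B and CDKN2B themselves, SRSF3 (82.1 kb upstream of CDKN1A, a splicing factor), APOLD1 (8.55 kb downstream of CDKN1B), LTO1 (34.2 kb downstream of CCND1) and TIGAR (47.45 kb downstream of CCND2, a fructose bisphosphatase). Of the other 51 regions, 8 did. None of the 7 gained sites lay so near a listed start, the gaps being 6.42 to 92.88 kb, against 5 of the 7 other WT BAF sites. In the merged region at APOLD1 (7.89 to 8.67 kb downstream of the CDKN1B start, with the WT BAF site at 8.4 kb, chr12:12878632-12878732, inside it), SMARCC1 had 26 and 18 fragments in the Empty replicates, 25 in WT, 28 in DBDmut, 15 in CBR, 13 in DDX4 and 12 in delIDR1. SMARCA4 had 7 to 21 fragments in that region in all but CBR, and H3K27ac had peaks that met the region in Empty replicate 2, WT and DDX4, at folds of 2.5 to 5.9. No H3K27ac peak of any library covered the WT BAF site itself. At the TIGAR position SMARCC1 had 8 to 25 fragments in all but delIDR1, and SMARCA4 had 17 in Empty replicate 2, 12 in CBR, 11 in DDX4 and 7 in DBDmut, but no peak in WT, so no WT BAF site was counted there. Membership by distance therefore includes peaks at promoters of neighbouring genes.

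H3K27ac peaks merged into 143 regions, of which 77 came from a single library, 48 of them from Empty replicate 2, and 10 were in all 7 libraries. Acetylation that appeared with WT was counted next. Of the 66 WT H3K27ac peaks in the windows, 21 overlapped no H3K27ac peak in Empty replicate 1 or 2, or 31.8% (21.8 to 43.8; genome 40.0%). Without Empty replicate 2, the deepest library, they numbered 37. By gene they were 5 at CDK6, 5 at CDKN1B, 4 at CDKN1A, 4 at CDKN2A and CDKN2B, 3 at CCND1, and 0 at CCND2 and CCNE1. Of the 21, DBDmut listed 10 (47.6%; genome 41.2%) and delIDR1 listed 7 (33.3%; genome 33.1%). CBR listed 3 (14.3%; genome 7.7%) and DDX4 listed 1 (4.76%; genome 7.5%). At CDK6, DBDmut listed 5 of 5 and delIDR1 4 of 5, whereas at CDKN1A and CCND1 neither listed any of 4 and 3. The 4 near CDKN1A had 9 to 12 fragments, against 24 to 50 near CDK6, so they were also the weaker peaks. A WT subunit peak overlapped 8 of the 21 (38.1%; genome 33.2%).

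Acetylation present in both Empty replicates was then followed into the ARID1A libraries. The windows held 39 such peaks, of which WT lacked 10 (25.6%; genome 20.2%), DBDmut 12 (30.8%; 23.9%), delIDR1 21 (53.8%; 34.8%), CBR 18 (46.2%; 30.6%) and DDX4 6 (15.4%; 17.2%). delIDR1 lacked 6 of 7 around CCNE1, 5 of 6 around CDKN2A and CDKN2B and 6 of 9 around CDKN1B, but 0 of 4 around CDK6 and 0 of 2 around CCND2. CBR lacked 6 of 9 around CDKN1B, 4 of 6 around CDKN2A and CDKN2B and 1 of 4 around CDK6. The delIDR1 H3K27ac list was the shortest and shallowest of the 7, and the part of depth in its missing peaks was not tested. All 5 forms lacked 4 of the 39 (10.3%; genome 6.18%), which lay 68.4 kb upstream of CDKN1A, 50.5 kb downstream of CCND1, 33.8 kb downstream of CCNE1 and 0.6 kb downstream of the CDKN2A start. In Empty replicate 1 they had 19, 64, 14 and 22 fragments in that order, and the CDKN2A peak had a fold of 2.9 and rank 34702 of 36348. Those at CCNE1 and CDKN2A lay in wider merged regions where WT, DBDmut, CBR and DDX4 did list H3K27ac peaks.

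A last set of values is for the H3K27ac region of highest q in the WT list of each remaining window. In the CCND2 window it lay near the TIGAR start, with 31 to 144 fragments in all 7 libraries. In the CCNE1 window it lay about 96 kb upstream, at listed starts of C19orf12. It had 135 fragments there in Empty replicate 2, 10 in delIDR1 and 26 to 41 in the others. Near CDKN2B the region lay 94.2 kb upstream, with 23 and 33 fragments in Empty, 77 in WT, 71 in DBDmut, 55 in delIDR1, 47 in DDX4 and 21 in CBR. At this last position WT also had SMARCA4 (9 fragments) and its highest SMARCC1 fold of the windows, 12.2 with 30 fragments, where Empty replicate 2 had 9 SMARCC1 fragments and Empty replicate 1 no subunit peak. The H3K27ac pileup there was higher in WT, DBDmut, delIDR1 and DDX4 than in both Empty replicates, and lower in CBR, differences without a replicate check. In the CDKN1B window the peak of highest q lay 96.3 kb downstream, near the DDX47 start. It had 14 and 26 fragments in Empty, 26 in WT and in DBDmut, 14 in CBR, 20 in DDX4 and none in delIDR1. In the CCND1 window it was the WT peak 17.1 kb downstream, with 13 fragments and no counterpart in the other 6 libraries.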

How the data were processed

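CUT&Tag libraries of SMARCA4, SMARCC1 and H3K27ac from 7 backgrounds and of HA from DDX4 cells, 22 in all, were grouped by title. Per the submitters' processing notes the build was hg19 and reads went through bcl2fastq (version not recorded). Which aligner, peak caller, duplicate handling and control were used is not given in the sources used here. Every library has its own deposited peak list, so replicates were not pooled by the authors. The deposited fold is a ratio of summit pileup to local background, each with 1 added. The deposited -log10 p-value and -log10 q-value belong to each peak, with a lowest -log10 q near 2, and the deposited score is 10 times the -log10 q. All are the authors' values. Ranks were taken within a list. Folds, and pileups solved from them, were also set side by side between libraries, without scaling for depth unless stated.

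Pileups were solved from fold and p-value as whole numbers under a Poisson tail, with a tolerance of 0.001 in -log10 p, which held for at least 99.96% of peaks. Depth was estimated as the lowest background of a library divided by its shortest peak. Peaks on chromosomes 1 to 22 and X overlapped when they shared at least 1 bp, and a promoter was 1 kb on either side of the start. Intervals are Wilson 95% intervals and, like all counts of PCR fragments, cover counting error only. With 1 library per construct no other test than the exact permutation test was run. Code was tested on simulated data.

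Text names all 8 genes, their promoters, up to 3 WT BAF sites of best summed rank per window, every gained site, BAF sites of both Empty replicates missing in WT or particular to a mutant, and the top WT H3K27ac peak per window. Members and lists were chosen with earlier results of these data known. Alternatives were equal list lengths, a -log10 q minimum of 5, other window widths, overlap of 50%, summits within 250 bp, counts per 10000 peaks of a list, either subunit alone and leaving out an Empty replicate. Other cell-cycle genes and gene context in hg19 were not analysed here. Python 3.11.15, numpy 2.4.6, scipy 1.17.1, pandas 2.3.3 and matplotlib 3.10.9 were used.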

Additional observations from a re-analysis of the deposited data

Results flagged for a closer look

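The HA list of the DDX4 cells, which has no counterpart here in Empty or in another form of ARID1A, held 5 peaks in the windows. They lay 82.3 and 9.2 kb upstream of CDKN1A, at the CDKN2B promoter, 32.9 kb downstream of CCNE1 and 2.8 kb downstream of the CDK6 start, with 6 to 9 fragments each. No HA library of another background was analysed here, so there is no control level beside this count.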

How the results depend on the processing

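Of the recomputed values, 77 stayed near their main value or direction, 48 moved and 3 reversed. The 7 gained sites became 4 of 9 at -log10 q of at least 5, 1 of 3 with lists of equal length, 3 of 8 with windows of 50 kb and 14 of 26 with windows of 200 kb on either side, and 15 of 19 and 15 of 31 with SMARCA4 alone and SMARCC1 alone, and ranged from 7 to 10 without an Empty replicate. The 21 gained H3K27ac peaks became 6 of 34 and 52 of 131 with the narrower and wider windows, and ranged from 26 to 37 without an Empty replicate. Gained sites with both subunits in DBDmut, 2 of 7, became 0 of 1 with lists of equal length, 0 of 3 and 5 of 14 with the narrower and wider windows, 1 of 7 with an overlap of 50%, 5 of 15 and 4 of 15 with SMARCA4 alone and SMARCC1 alone, and 2 of 7 to 4 of 10 without an Empty replicate. In delIDR1, 1 of 7 became 0 of 3 and 3 of 14 with those windows and 3 of 15 with SMARCA4 alone. In CBR, 0 of 7 became 2 of 15 and 4 of 15 with SMARCA4 alone and SMARCC1 alone, and in DDX4 1 of 15 with SMARCA4 alone. Gained sites with H3K27ac at -log10 q of at least 5 were 4 in WT, 3 in DBDmut, 4 in delIDR1 and 0 in CBR, DDX4 and both Empty replicates, of 4 sites. With lists of equal length, of 1 site, they were 1 in WT, DBDmut, delIDR1 and DDX4 and 0 in CBR and both Empty replicates. Of the 3 sites of the narrower window they were 3 in WT, DBDmut and delIDR1 and 1 in DDX4, and of the 14 of the wider window 13 in WT, 13 in DBDmut, 11 in delIDR1 and 2 in Empty replicate 2. Without an Empty replicate (7 or 10 sites) they ranged from 3 to 6 in CBR, 2 to 5 in DDX4 and 1 to 4 in each Empty replicate. The difference in peak number became -0.2 for SMARCA4 and -0.3 for H3K27ac with lists of equal length, H3K27ac ranged from -49.2 to -4.2 without an Empty replicate, and SMARCC1 became -1.7 with the narrower window and ranged from -4.0 to 6.0 without an Empty replicate. Per 10000 peaks of a list the differences were 3.54, 0.023 and -0.366 for SMARCA4, SMARCC1 and H3K27ac. The causes were not tested, beyond the fewer or more sites that each setting leaves. No paired analysis was possible because replicate numbers exist only for Empty. Subunit peaks of few fragments and single libraries limit all of these counts.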
